A study of Mus musculus and Homo sapiens with 14 samples.

Results

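The interferon regulatory factor (IRF) genes Irf1, Irf2, Irf3, Irf4, Irf5, Irf7, Irf8 and Irf9 were followed by symbol through 14 RNA-seq libraries of plasma cells, B cells and plasma cell tumour lines. All 8 genes were found in both count tables, among 26221 mouse and 27945 human entries with a symbol; human genes are written in capitals. The series varied IRF4 itself, in 10 mouse and 4 human libraries. MPC-11, a mouse plasmacytoma line, and MM.1S, a human multiple myeloma line, carried Cas9 with a guide RNA against Irf4 (labelled Irf4 -/-) or with an empty vector (labelled WT). All of these cells received doxycycline and were sorted on day 3, with 2 libraries per condition. Splenic plasma cells labelled Irf4 flox/- or Irf4 flox/+ (2 libraries each) were of donor origin, from marrow transferred with uMT marrow into congenically marked hosts. Those hosts received tamoxifen on days 1, 2, 7 and 8 and were harvested on day 14. Wild-type bone marrow plasma cells and wild-type splenic follicular B cells gave 1 library each. The mouse libraries, MPC-11 included, are labelled C57BL/6, and the labels give no Cre driver, age, number of animals or number of clones. Both splenic genotypes carried a floxed allele and received tamoxifen, so the second allele differed before treatment as well. Nothing in the labels says that replicates came from separate mice or cultures, so p-values measure only the spread between these samples, which may be technical.

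Libraries held 18680882 to 26993510 counts in mouse and 19309165 to 21564060 in human. Immunoglobulin genes took 58.8% and 55.5% of counts in the flox/- libraries and 75.6% and 77.2% in the flox/+ libraries. They took 17.8% to 33.9% in MPC-11, 2.34% to 3.29% in MM.1S, 72.0% in bone marrow plasma cells and 3.25% in follicular B cells. All 8 plasma cell markers had counts in every plasma cell and tumour line library, and all 10 B cell markers had counts in the follicular B cell library. A count alone does not separate these cells, as only Tnfrsf17 of the plasma cell markers was at 0 in follicular B cells. Values below are CPM, counts scaled to the depth of the library, after TMM scaling, which assumes that most genes do not differ between libraries. In mouse, plasma cell markers summed to 487 CPM in follicular B cells and 7980 to 98800 CPM in the other libraries. B cell markers summed to 7180 CPM in follicular B cells and 22 to 829 CPM in the others. Mzb1 stood at 0.473 to 3.34 CPM in MPC-11 and 171 CPM in follicular B cells. The 2 flox/+ columns of the count table bear 1 name between them, so these libraries are written a and b.

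IRF proteins share a DNA-binding domain that recognises GAAA repeats. Irf3 and Irf7 are kept inactive in the cytoplasm until kinases downstream of nucleic acid sensors phosphorylate them, after which they switch on type I interferon genes; Irf5 acts in the same way downstream of Toll-like receptors. Secreted interferon signals through receptors, the kinases Jak1 and Tyk2 and STAT factors, which join Irf9 in a complex that drives interferon-stimulated genes. Irf1 and Irf7 are themselves interferon-stimulated, and Irf2 competes with Irf1 for the same sites. Irf4 and Irf8 are the lymphoid and myeloid members, which bind weakly alone and pair with PU.1, SPIB or BATF at composite sites. In the B lineage, Irf8 is known for germinal centre and B cell programmes, and high Irf4 for plasma cell differentiation and survival.

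Upstream sequences of all 8 mouse genes were read for sites of these factors, since several family members are also their targets. The 250 bases before the 1 or 2 starts per gene in a RefSeq table (GRCm38.p6) were searched on both strands for the interferon-stimulated response element core, 2 GAAA runs with any 2 bases between them, bound by IRF dimers and by the complex of STAT factors with Irf9. The same windows were searched for the STAT element TTCNNNGAA and for the Ets-IRF composite element, GGAA and GAAA with any 2 bases between them, bound by PU.1 with Irf4 or Irf8; the 2 elements can overlap. Of 32851 windows of this length in the RefSeq table, 2.98% held the first, 7.02% the second and 2.3% the third. Windows of Irf1, Irf2 and Irf8 held matches. The Irf1 window with a match (chr11:53769764-53770013, plus strand) is shown 5′ to 3′ because its gene is both an interferon target and a member that DESeq2 called higher in guide-carrying MPC-11; capitals mark the matched bases.
Irf1 promoter: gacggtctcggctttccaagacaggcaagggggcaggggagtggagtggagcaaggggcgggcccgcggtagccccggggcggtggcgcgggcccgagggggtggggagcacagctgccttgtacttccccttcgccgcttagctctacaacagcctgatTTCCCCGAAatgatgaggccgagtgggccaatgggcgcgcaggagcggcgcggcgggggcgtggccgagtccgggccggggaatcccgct
This window held 1 STAT element, at positions -90 to -82 relative to the start. In the Irf2 window the composite element GGAAGTGAAA (-247 to -238) and the response element core GAAAATGAAA (-241 to -232) overlap, followed by the STAT element TTCCGAGAA (-224 to -216). The Irf8 window held 2 STAT elements, TTCTCGGAA (-171 to -163) and TTCAGAGAA (-153 to -145). No match stood in the windows of Irf3, Irf4, Irf5, Irf7 and Irf9, which says only that these letters are not there. For Irf5 and Irf7 the start in the table lies inside the annotated gene. The bases before the outer end of Irf5 were not searched. The Irf7 window (chr7:141266425-141266674, minus strand) reached beyond the outer end of its gene at 141266499. A match is a run of letters and not evidence of binding. No run of 31 bases was shared between the annotated mouse transcripts of any pair of the 8 genes, so no exact read of that length or longer could belong to 2 of them.

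Levels of different genes were compared per length, on the authors' log2 FPKM scale, where fragments are scaled to gene length and depth. Irf4 stood at 6.16 and 5.25 log2 FPKM in guide-carrying MPC-11 and was highest in empty-vector MPC-11, at 6.95 and 7.10, and in bone marrow plasma cells, at 7.02. Flox/- plasma cells had 5.76 and 6.07 and flox/+ plasma cells 6.19 and 5.14, so that these 2 groups and guide-carrying MPC-11 overlap. Follicular B cells were lowest at 4.48. Irf8 had another order. It stood at 7.56 and 7.48 in the flox/- libraries, at 6.06 and 6.20 in the flox/+ libraries, at 6.76 in bone marrow plasma cells and at 8.73, its highest, in follicular B cells. All 4 MPC-11 libraries had no Irf8 count at all, which at their depth allows at most 0.0789 to 0.108 CPM per library (3 counts, counting error only). Their log2 FPKM of about -4.2 is the offset given to a count of 0. In MM.1S, IRF8 was the lowest member at 1.12 to 2.30 log2 FPKM, while IRF4 stood at 4.73 and 5.12 with the guide and at 6.52 and 6.29 with the empty vector.

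Of the sensor-activated members, Irf7 was highest in splenic plasma cells, at 8.48 and 7.52 log2 FPKM with flox/- and at 6.63 and 6.57 with flox/+. It stood at 4.86 in bone marrow plasma cells, 4.25 in follicular B cells and in MPC-11 at 3.03 and 3.13 with the guide and 3.87 and 3.23 with the empty vector. Irf5 had a narrow range, 5.89 to 7.74 over the 10 mouse libraries, with follicular B cells at the top and flox/+ plasma cells at the bottom. Irf3 lay between 4.87 and 5.86 in all primary cells and between 3.66 and 3.77 in MPC-11. Of the interferon-response members, Irf2 and Irf9 were highest in follicular B cells, at 6.11 and 6.41. Irf1 had 6.85 there and 6.46 and 6.95 in the flox/- libraries. All 3 were lowest on average in empty-vector MPC-11, where Irf1 averaged 4.76 ± 0.19 and Irf2 3.84 ± 0.22 (SD, n = 2). Irf9 stood there at 4.58 and 3.81, its upper value next to the 4.6 of bone marrow plasma cells.

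**Figure D1:**
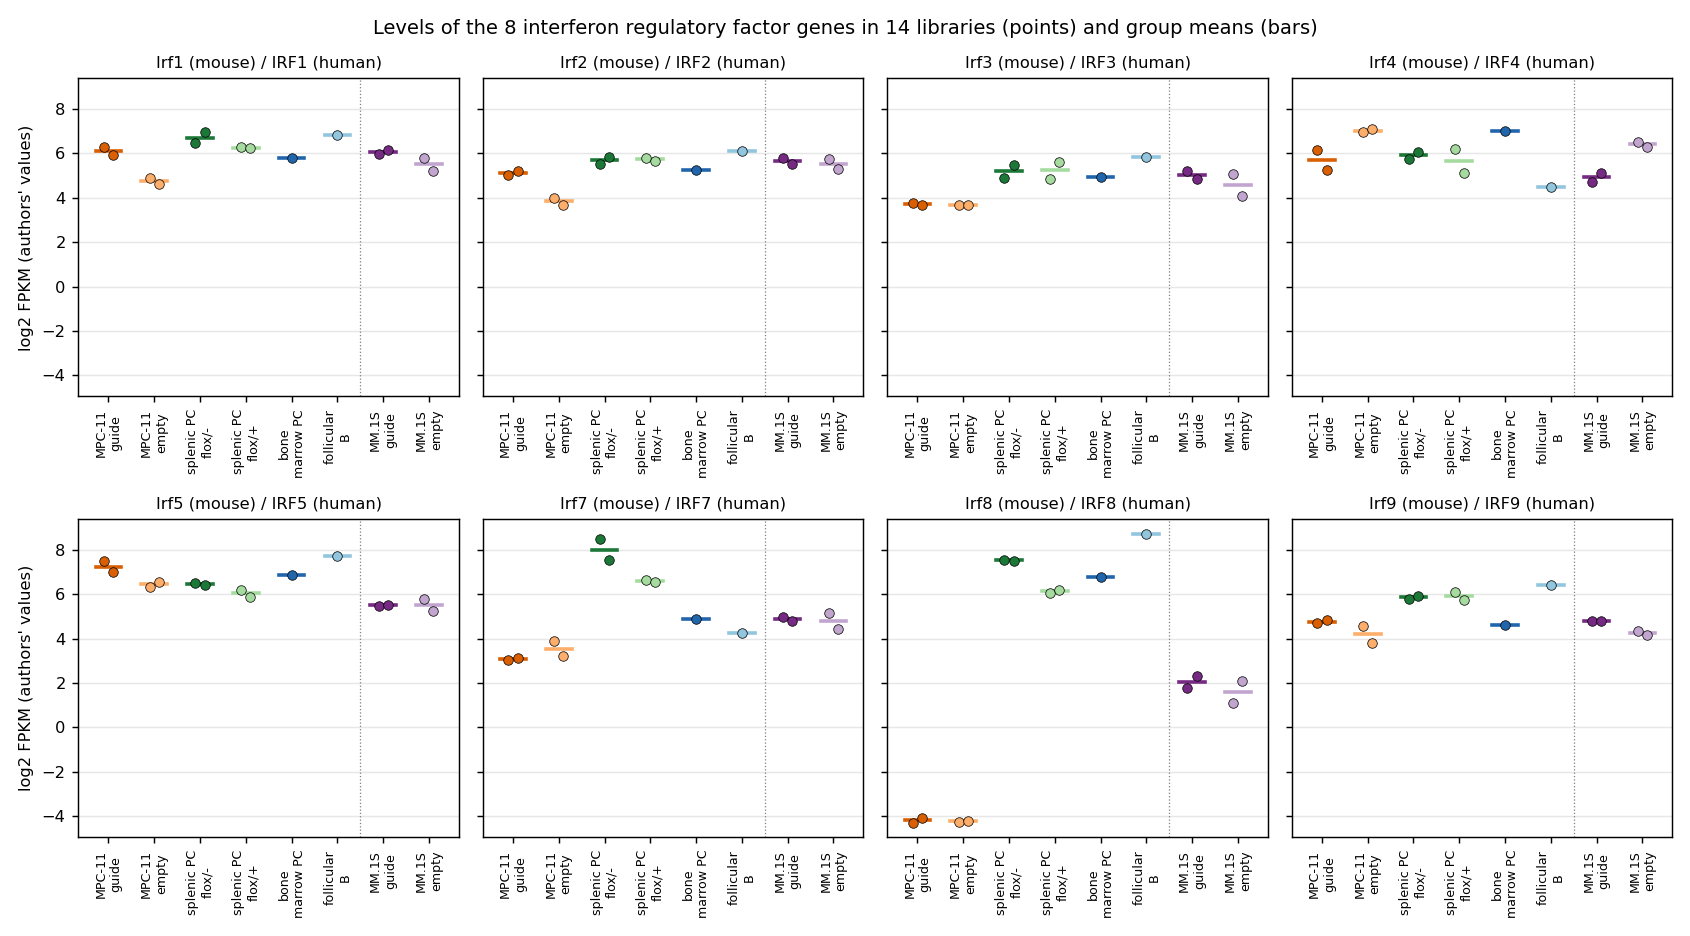
Level of each IRF gene in log2 FPKM (vertical axis) in every library (points) of 8 groups, with group means as bars; PC is plasma cell, and human MM.1S stands right of the dotted line. Irf8 sits near -4.2, the value of a count of 0, in all 4 MPC-11 libraries and peaks at 8.73 in follicular B cells, while Irf4 is highest in empty-vector MPC-11 and bone marrow plasma cells.

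Summed over the 8 genes, FPKM was 910 and 803 in the flox/- libraries and 545 and 492 in the flox/+ libraries. It was 412 and 312 in guide-carrying MPC-11 and 301 and 305 in empty-vector MPC-11. The sum was 289 and 287 in guide-carrying MM.1S, within the 348 and 253 of empty-vector MM.1S. Bone marrow plasma cells had 531 and follicular B cells 1010. The leading member differed by source: Irf8 made up 42.1% of the sum in follicular B cells and Irf4 24.4% in bone marrow plasma cells. Irf7 led in both splenic genotypes, with 39.2% and 22.9% in flox/- and 18.1% and 19.3% in flox/+ plasma cells. In flox/- library 2, Irf8 was close to it at 22.3%. In MPC-11, Irf4 held 17.3% and 12.2% in guide-carrying libraries and led in empty-vector libraries with 41.0% and 45.1%. Irf5 led in guide-carrying libraries with 43.9% and 40.5%, and had 26.8% and 30.7% in empty-vector libraries. In MM.1S, IRF4 held 9.18% and 12.1% with the guide and led with 26.4% and 30.9% with the empty vector. IRF1 led in guide-carrying MM.1S with 21.7% and 24.9%.

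**Figure D2:**
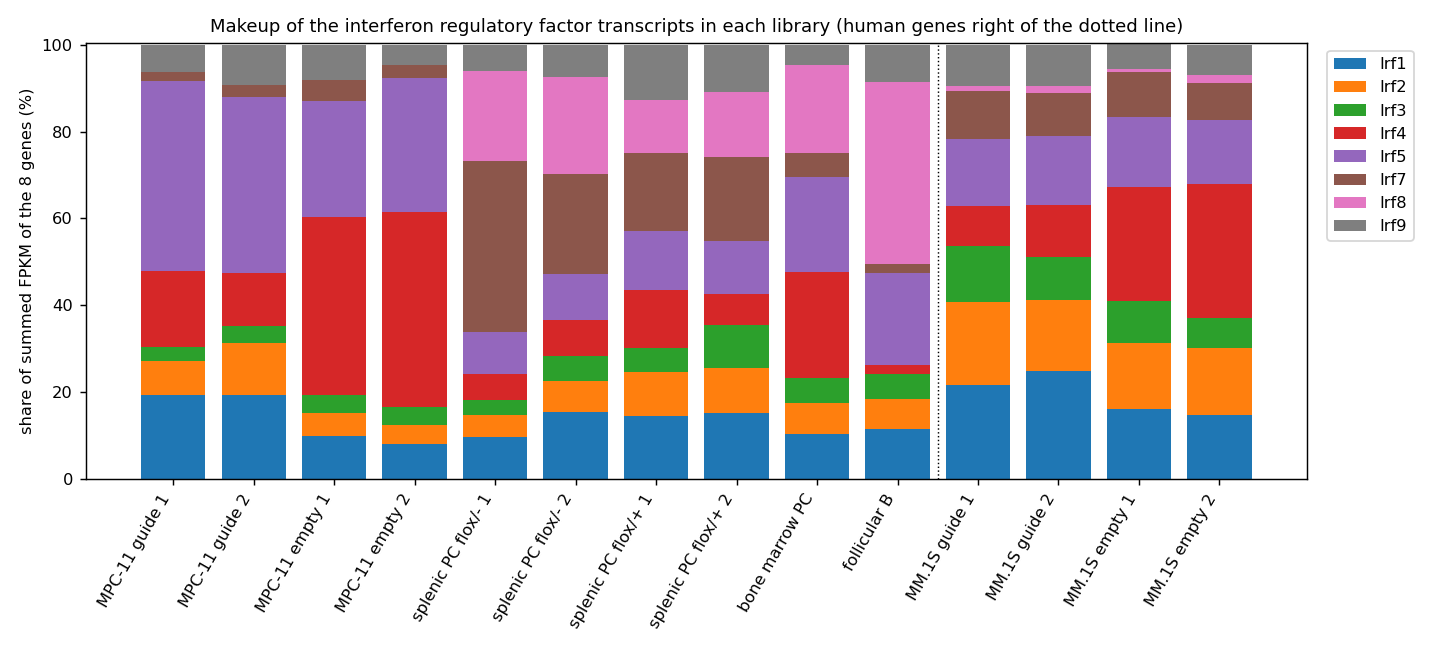
Share of the summed FPKM of the 8 genes taken by each gene (vertical axis, %) in each library (bars), human libraries right of the dotted line. Irf4 takes 17.3% and 12.2% in guide-carrying MPC-11 against 41.0% and 45.1% with the empty vector, Irf8 leads in follicular B cells with 42.1%, and Irf8 is missing from MPC-11.

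The balance between Irf4 and other members within a library does not depend on how libraries are scaled to each other. Irf4 minus Irf8 was -1.80 and -1.41 log2 with flox/-, and 0.14 and -1.06 with flox/+, so both flox/- values lie below both flox/+ values. That difference was 0.26 in bone marrow plasma cells and -4.25 in follicular B cells. In MM.1S it was 2.97 and 2.82 with the guide and 5.40 and 4.19 with the empty vector, with no overlap. Irf4 minus Irf5 changed sign with the guide in both lines. In MPC-11 it was -1.34 and -1.73 in guide-carrying libraries, against 0.61 and 0.55 in empty-vector libraries. In MM.1S it was -0.76 and -0.40 against 0.71 and 1.06. Splenic groups overlapped on that measure, at -0.73 and -0.35 with flox/- against -0.02 and -0.75 with flox/+. With 2 libraries per group, a two-sided exact permutation test of such a difference cannot go below 0.333, so none was run.

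**Figure D3:**
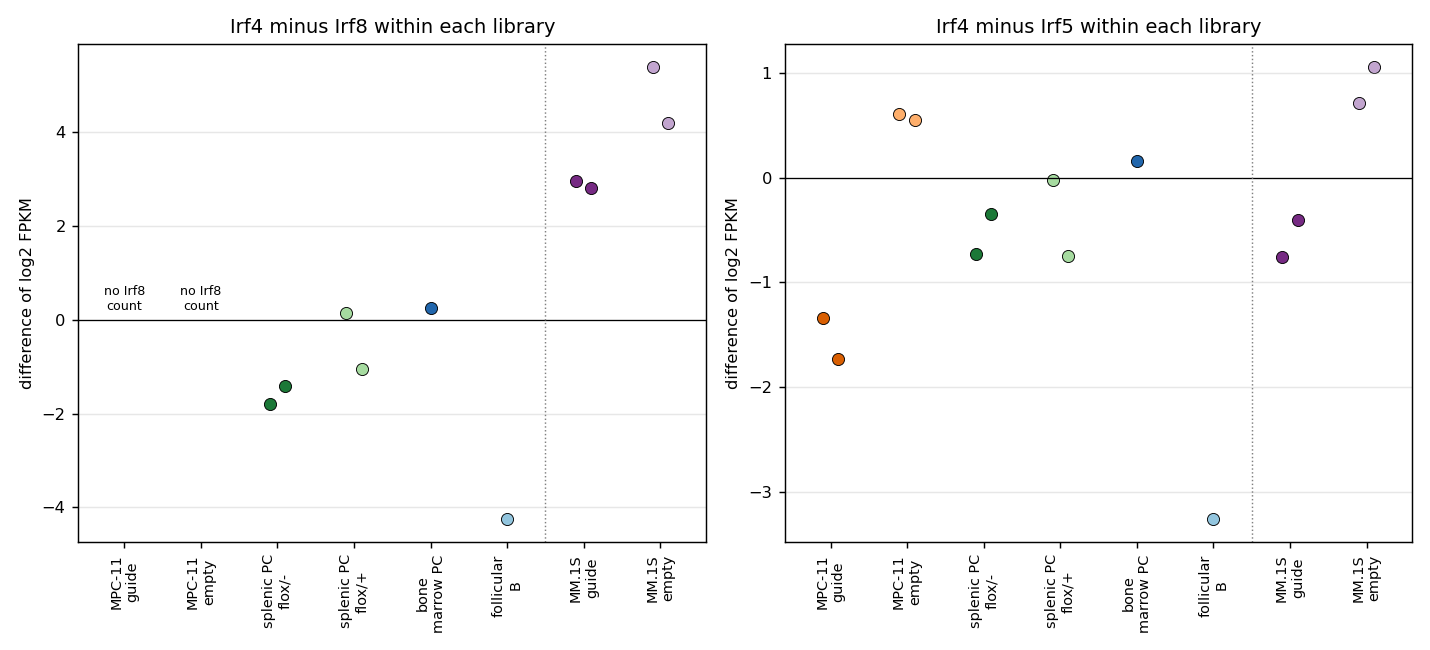
Difference of log2 FPKM between Irf4 and Irf8 (left) and between Irf4 and Irf5 (right) within each library (points), by group; the left panel has no value for MPC-11, where Irf8 had no count. Irf4 exceeds Irf5 in the empty-vector libraries of both lines and lies below it in all 4 guide-carrying libraries.

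Genes whose levels most resembled those of Irf4 and Irf8 were sought over the 10 mouse libraries among 7165 genes, by the mean absolute difference of log2(CPM + 1) after centring each gene. Nearest to Irf4 were Aars (0.29), the alanyl-tRNA synthetase gene, Ggta1 (0.35), Ccne1 (0.37), Entpd1 (0.38) and Focad (0.38). Nearest to Irf8 were Ptprc (0.25), which encodes CD45, Jak1 (0.29), Fcmr (0.30), the IgM Fc receptor gene, H2-Ob (0.42) and Serpina3g (0.42). Each of the last 5 had no count in at least 1 MPC-11 library, as Irf8 had in all 4. The libraries share group and cell source, so these distances describe the set and carry no test.

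In MPC-11, which asked what the loss of IRF4 does in a plasmacytoma line, the guide-carrying cells had less Irf4 and more Irf1, Irf2 and Irf5. These were the members at an unadjusted edgeR p under 0.05, where 372 of 10670 genes were higher and 273 lower. Of the 8 genes, 7 passed the filter on low counts; Irf8 had no count. No member passed edgeR's quasi-likelihood test at an adjusted p under 0.05, a threshold that 0.0187% of 10670 genes passed. Groups did not overlap for 4 members higher and 2 lower with the guide, while 16.9% of all genes did so upwards and 16.5% downwards. The median log2 fold change was 0.55 over the 7, against -0.02 over all genes tested, of which 48.5% lay above 0. DESeq2 called 1.49% of genes.

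Irf4 (Entrez 16364; GRCm38 chr13:30749233-30766981) had 276 and 146 CPM with the guide and 467 and 496 CPM with the empty vector. Both guide libraries lay below both controls, but Irf4 transcripts were still counted in them, and a gene-level count cannot tell an edited transcript from an intact one. The log2 fold change was -1.19 ± 0.37 (SE, n = 2 per group; adjusted p = 0.592 in edgeR and 0.0762 in DESeq2). Irf1 (Entrez 16362; chr11:53770014-53778374) had 219 and 163 CPM with the guide and 82.6 and 68.9 CPM with the empty vector. Irf2 (Entrez 16363; chr8:46739745-46847458) had 70.0 and 76.1 CPM with the guide and 30.0 and 25.3 CPM with the empty vector. For both of these antagonists, each guide library lay well above each control. The log2 fold change of Irf1 was 1.33 ± 0.32 (SE; adjusted p = 0.498 in edgeR and 0.0106 in DESeq2). That of Irf2 was 1.40 ± 0.34 (SE; adjusted p = 0.498 in edgeR and 0.0225 in DESeq2). DESeq2 called 110 genes higher, 1.03% of those it tested, and these were the 2 members among them.

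Irf5, the Toll-like receptor member, had 360 and 239 CPM with the guide and 164 and 179 CPM with the empty vector, without overlap. Its log2 fold change was 0.81 ± 0.32 (SE, adjusted p = 0.793 in edgeR and 0.385 in DESeq2). Irf9, the partner of the STAT factors, had 58.4 and 61.9 CPM against 52.2 and 30.0, again without overlap (0.55 ± 0.39; edgeR adjusted p = 1). Irf7 lay the other way at a low level, with 10.2 and 11.2 CPM against 19.1 and 12.4. Irf3 overlapped, at 23.2 and 21.2 CPM with the guide and 19.5 and 21.6 CPM with the empty vector. Its small difference of 0.11 turned to -0.06 when counts were scaled to library size alone, a scaling that moved the median of all genes to -0.18; the other 6 kept their direction there. Markers of macrophages other than Cd68 had no count in the 4 MPC-11 libraries, and T cell, NK cell and red cell markers summed to at most 1.66 CPM.

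Around the family in MPC-11, DESeq2 called 5 pathway genes, all higher with the guide, and edgeR called 0. Among all genes tested, DESeq2 called 1.49%, with 1.03% higher, and edgeR called 0.0187%. Of 15 sensors, adaptors and kinases tested, 11 were higher (median log2 fold change 0.22; 8 of 15 when scaled to library size alone), edgeR called 0 and DESeq2 called 2. Tmem173, the gene of the cytosolic DNA adaptor STING, had 119 and 205 CPM with the guide and 29.5 and 20.5 CPM with the empty vector (2.69 ± 0.41, SE; adjusted p = 0.195 in edgeR and 1.12e-07 in DESeq2). Ddx58, the RNA sensor RIG-I, had 48.4 and 30.3 CPM against 2.33 and 9.48 (DESeq2 adjusted p = 0.0209). Among partners and cofactors, 9 of 12 were higher (median 0.62), DESeq2 called 2 and edgeR 0. These were Irf2bp2, a corepressor of Irf2 (375 and 273 CPM with the guide, 132 and 145 CPM with the empty vector), and Jund, an AP-1 subunit (626 and 764 against 271 and 380). Their DESeq2 adjusted p-values were 0.0148 and 0.0450.

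Interferon receptor and JAK-STAT genes split, with 5 of 9 higher (median 0.06, and -0.13 when scaled to library size alone). Jak2, the kinase of the type II receptor, stood at 253 and 196 CPM with the guide against 57.9 and 98.2 (1.53 ± 0.36, SE; DESeq2 adjusted p = 0.0115, edgeR adjusted p = 0.498). Ifnar2, a type I receptor chain, stood at 351 and 356 CPM with the guide against 661 and 418. Interferon-stimulated genes were 7 higher and 6 lower of 13 tested (median 0.23), with 0 called by either tool. Ifit1 stood at 17.4 and 13.9 CPM with the guide against 36.3 and 40.1, and Parp14 at 5.99 and 11 against 0 and 1.03. Inhibitors of the pathway were 4 higher and 2 lower of 6 (median 0.18, 0.01 scaled to library size alone), with the SUMO ligase gene Pias1 at 82.9 and 76.6 CPM with the guide against 112 and 99.8. Of 5 tested genes described as regulated by IRF4, 3 were higher (median 0.05, -0.17 scaled to library size alone). Sqle, a cholesterol synthesis gene, stood at 106 and 74.2 CPM with the guide against 62.2 and 70.2, and the desaturase gene Scd1 at 11.4 and 11.5 against 10.9 and 26.0. None of the last 3 lists had a call by either tool.

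In MM.1S, the human counterpart of that comparison, IRF4 itself was the member that stood apart. IRF4 had 142 and 191 CPM with the guide and 489 and 434 CPM with the empty vector. Both guide libraries lay far below both controls. Its log2 fold change was -1.47 ± 0.22 (SE, n = 2 per group; adjusted p = 0.199 in edgeR and 2.17e-08 in DESeq2), in a fit where edgeR called 0.00788% of 12696 genes. The adjusted p was 0.00731 without empty-vector library 1 and 0.0114 without empty-vector library 2, but 0.686 without guide library 1 and 0.907 without guide library 2. All 8 members passed the filter, and groups did not overlap for 2 higher, IRF1 and IRF9, and for IRF4 alone lower, against 22.4% and 18.9% of all genes. The median was 0.25, against 0.01 over all genes tested, of which 50.7% lay above 0; DESeq2 called 3.06% of genes.

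IRF1 had 222 and 254 CPM with the guide and 196 and 136 CPM with the empty vector (0.52 ± 0.24, SE; edgeR adjusted p = 0.546). IRF9 had 45.8 and 46.9 CPM with the guide and 33.4 and 29.5 CPM with the empty vector (0.56 ± 0.24; edgeR adjusted p = 0.503). Both are targets and carriers of the interferon response, and the guide libraries lay above the controls in both, 1.43-fold and 1.47-fold by the fitted ratio. IRF2, IRF3, IRF5, IRF7 and IRF8 overlapped between groups, with log2 fold changes from -0.06 (IRF5) to 0.42 (IRF8). IRF2, whose mouse counterpart was higher in guide-carrying MPC-11, stood at 134 and 116 CPM with the guide and 129 and 98.8 CPM with the empty vector (0.14 ± 0.23). The 2 lines are of different species and were fitted apart, so the difference between them was not tested.

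Interferon-stimulated genes lay higher in guide-carrying MM.1S for 18 of 22 tested (median 0.58), with 0 called by edgeR and 2 by DESeq2. DDX60, an antiviral helicase, had 3.93 and 6.20 CPM with the guide and no count with the empty vector (DESeq2 adjusted p = 0.000122). PARP9 had 14.3 and 19.1 CPM with the guide and 0.700 and 0 CPM with the empty vector (DESeq2 adjusted p = 1.19e-05). Among partners, SPI1, which encodes PU.1, had 36.5 and 38.4 CPM against 19.1 and 10.1 (1.36 ± 0.36, SE; edgeR adjusted p = 0.314), in a list with 8 of 14 higher (median 0.10); JUND stood at 65.2 and 38.3 against 77.5 and 70.9. Of 17 sensors, adaptors and kinases 13 were higher (median 0.20), and IKBKE, a kinase that phosphorylates IRF3 and IRF7, had 326 and 343 CPM with the guide and 211 and 217 CPM with the empty vector (DESeq2 adjusted p = 0.0191). TMEM173 lay opposite to its mouse counterpart in MPC-11, at 1.19 and 1.02 CPM with the guide and 9.99 and 2.85 CPM with the empty vector.

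Receptor and JAK-STAT genes were 4 higher of 10 (median -0.06), with IFNGR1 at 57.9 and 47.2 CPM with the guide against 29.4 and 30.3 and JAK2 at 6.62 and 7.86 against 15.6 and 10. Inhibitors were 7 higher of 10 (median 0.18); TNFAIP3 stood at 479 and 502 CPM against 399 and 284, and TRIM21 at 102 and 108 against 80.8 and 88.7. No gene of these 2 lists was called by either tool. Genes described as regulated by IRF4 were 6 lower of 9 (median -0.29). CDK6, a G1 kinase, had 27.1 and 21.2 CPM with the guide and 46.8 and 55.5 CPM with the empty vector (DESeq2 adjusted p = 0.0260), and KLF2 had 3.62 and 2.64 against 12.8 and 7.21. CDK6 was the only gene of that list that DESeq2 called, and edgeR called none. The direction of each of the 8 members and the sign of each list median in MM.1S held under the scalings tried, which were library size alone, upper quartile and TMM without immunoglobulin genes.

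In splenic plasma cells, which asked the same question in the animal, Irf8 and Irf7 were higher in the flox/- libraries, while Irf4 transcripts did not separate the genotypes. Irf4 had 82.6 and 99.8 CPM with flox/- and 114 and 53.8 CPM with flox/+. The groups overlap (log2 fold change 0.12 ± 0.43, SE, n = 2 per group; edgeR adjusted p = 0.967). The sign turned to -0.03 without flox/- library 2 and to -0.33 without flox/+ library b. The labels do not name the floxed exons, so this gene-level count does not check the genotype.

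Irf8 (Entrez 15900; chr8:120736358-120756694) had 178 and 157 CPM with flox/- and 60.7 and 69.7 CPM with flox/+. Both flox/- libraries lay at more than 2-fold the flox/+ libraries and close to each other. The log2 fold change was 1.36 ± 0.29 (SE; adjusted p = 0.275 in edgeR and 0.00231 in DESeq2). Irf7 (Entrez 54123; chr7:141263183-141266499) had 233 and 107 CPM with flox/- and 59.1 and 58.3 CPM with flox/+. It was higher in both flox/- libraries, which differed widely from each other. The log2 fold change was 1.53 ± 0.44 (SE; adjusted p = 0.285 in edgeR and 0.0401 in DESeq2). Without flox/- library 1 it was 0.87 for Irf7 and 1.27 for Irf8, and without flox/- library 2 it was 1.98 and 1.44. In this fit 0% of 11887 genes passed edgeR's threshold, 12.5% had an unadjusted p under 0.05 (8.63% higher, where 2 of the 8 members stood), and DESeq2 called 5.45%, of which most, 3.71% of all, were higher.

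Irf1 and Irf5 also did not overlap. Irf1 had 97.5 and 132 CPM with flox/- and 87.9 and 89.3 CPM with flox/+ (0.37 ± 0.31, SE; edgeR adjusted p = 0.754), and Irf5 had 70.3 and 64.6 against 57.0 and 45.9 (0.39 ± 0.30; edgeR adjusted p = 0.725). With 4 of 8 members higher without overlap and 0 lower, the background was 25.7% higher and 18.3% lower among all genes. Irf2, Irf3 and Irf9 overlapped, with log2 fold changes of -0.05, 0.00 and -0.10. Scaled to library size alone, where the median of all genes was 0.98 instead of 0.09, these 3 turned to 0.86, 0.93 and 0.79, below that median. Irf8 and Irf7 then had 2.25 and 2.39, above it. The median of the 8 was 0.25, and 54.3% of all genes lay above 0.

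Markers of other cells differed between the same libraries, on a CPM scale set over all 10 mouse libraries. Together the 11 macrophage markers had 7220 and 611 CPM (flox/- libraries 1 and 2), against 489 and 182 CPM (flox/+ libraries a and b), with Marco at 0 in all but flox/- library 1. The 10 B cell markers summed to 531 and 829 CPM with flox/- and 262 and 293 CPM with flox/+, with Pax5 and Cr2 at 0 in flox/+ library b. Likewise, the T cell list gave 212 and 548 CPM with flox/- and 16.1 and 30.6 CPM with flox/+. The NK cell list gave 36.5 and 89.4 against 1.74 and 0.598, and the red cell list 827 and 44.1 against 42.2 and 4.87. Macrophages, dendritic cells and B cells all express Irf8 or Irf7, and the part of these markers in the result was not tested. Plasmacytoid and dendritic cell markers summed to 1070 and 1040 CPM with flox/- and 1310 and 1270 CPM with flox/+, sums carried by Ly6d, Tcf4 and Bst2. Of the 9 genes of that list tested, 5 were higher and 4 lower with flox/-. The lower ones were Tcf4, Ly6d, Clec9a and Xcr1. Tcf4 had 157 and 168 CPM with flox/- and 230 and 230 CPM with flox/+, and Ly6d had 655 and 752 against 912 and 875. Among the higher ones, the dendritic cell marker Itgax had 24.9 and 1.95 CPM with flox/- and 0.275 and 0 CPM with flox/+ (DESeq2 adjusted p = 0.00354). Most of this signal was in flox/- library 1, which also had the highest macrophage marker sum. The plasmacytoid marker Siglech stood at 1.74 and 0.599 against 0 and 0. The 8 plasma cell markers summed to 36300 and 33600 CPM with flox/- and 79000 and 98800 CPM with flox/+. In such bulk samples, more cells of a type and more RNA per cell cannot be told apart.

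Interferon-stimulated genes lay higher with flox/- for 21 of 25 (median 1.12, against 0.09 over all genes), with 0 called by edgeR, 9 at an unadjusted p under 0.05 and 4 called by DESeq2. Oas2 had 5.07 and 6.99 CPM with flox/- and 0.0585 and 0 CPM with flox/+ (DESeq2 adjusted p = 0.000584, edgeR adjusted p = 0.275). Rsad2, which encodes viperin, had 18.9 and 2.41 CPM with flox/- and no count with flox/+, with most of the signal in flox/- library 1 (DESeq2 adjusted p = 2.7e-05). Interferon genes themselves gave almost no reads: the highest count in any library was 15 for Ifng in mouse and 19 for IFNG in human, and Ifnb1 and the 4 alpha interferon genes looked up had 0 throughout.

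Partners of Irf4 and Irf8 included Batf2, with 6.87 and 0.847 CPM in flox/- and no count in flox/+ libraries, and Batf3, with 5.85 and 0.596 CPM in flox/- and no count in flox/+ libraries. Both were highest in flox/- library 1, which also had the highest macrophage and red cell marker sums, and whether these are linked was not tested. DESeq2 called these 2 of 15 partners (adjusted p = 0.00458 and 0.0117), of which 9 were higher (median 0.29). Sensors and adaptors were 13 higher of 16 (median 0.46) with 0 called by either tool; Irak4, an adaptor kinase, had 10.4 and 9.75 CPM with flox/- and 5.09 and 4.76 CPM with flox/+, and Tlr7 had 27.7 and 16.4 against 13.7 and 12.8. Receptor and JAK-STAT genes were 7 higher of 10 (median 0.35) and likewise had no call. Ifngr1 had 87.9 and 26.4 CPM with flox/- against 18.2 and 17.0, and Jak1 had 125 and 179 against 89.8 and 72.2.

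Among inhibitors 6 of 11 were higher (median 0.15, no call by either tool), with Tnfaip3 at 21.1 and 35.2 CPM against 13.2 and 8.47 and the phosphatase gene Ptpn6 at 300 and 331 against 204 and 217. Among genes described as regulated by IRF4, 7 of 9 were higher (median 1.6), edgeR called 0, and DESeq2 called 1 higher and 1 lower. The first was Klf2, a transcription factor gene, with 21.3 and 33.6 CPM with flox/- and 5.61 and 9.48 CPM with flox/+ (adjusted p = 0.0283 in DESeq2), and the other was Xbp1. Ciita, the class II transactivator, had 51.8 and 55.1 CPM with flox/- and 0 and 1.11 CPM with flox/+ (6.55 ± 1.27, SE; adjusted p = 0.275 in edgeR and 0.0798 in DESeq2). Xbp1, a driver of secretion, had 1230 and 1110 CPM with flox/- and 2750 and 3680 CPM with flox/+ (-1.46 ± 0.35; adjusted p = 0.275 in edgeR and 0.000757 in DESeq2). Scaled to library size alone, where the median of all genes rose to 0.98, every list median stayed above 0. That shift alone would keep these signs. The medians were then 1.08 for inhibitors, 1.21 for partners, 1.24 for receptors and JAK-STAT and 1.39 for sensors and adaptors. They were 2.03 for interferon-stimulated genes and 2.5 for genes described as regulated by IRF4.

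**Figure D4:**
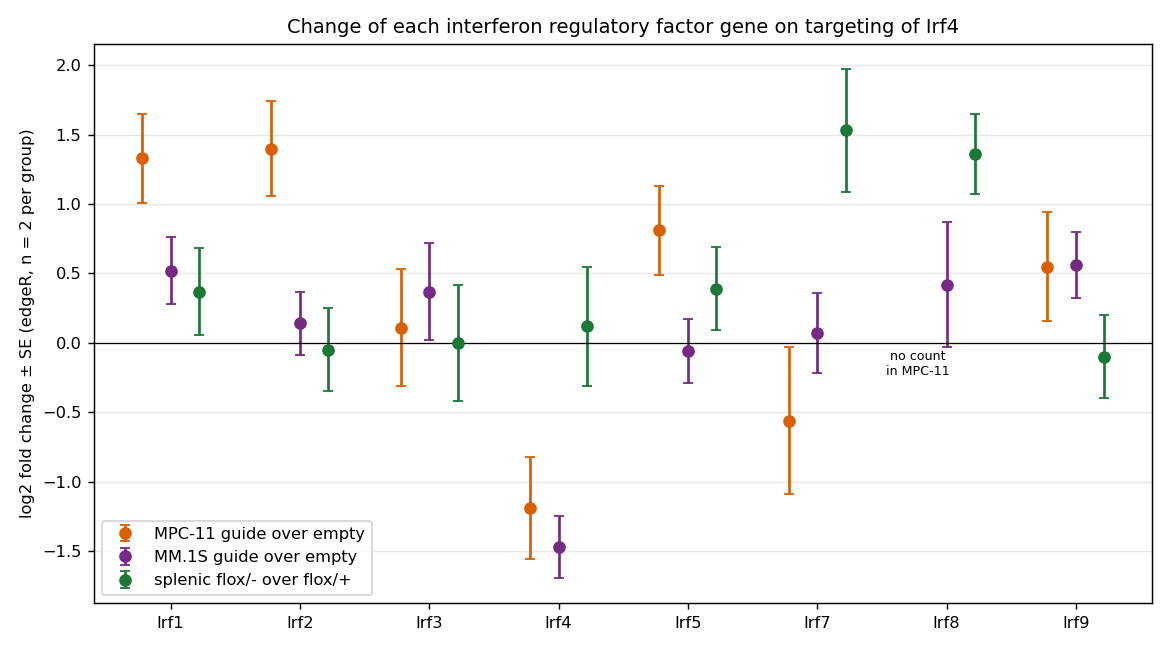
Log2 fold change (vertical axis; edgeR, points with SE, 2 libraries per group) of each IRF gene for guide over empty vector in MPC-11 and MM.1S and for flox/- over flox/+ in splenic plasma cells. No point passes an adjusted p of 0.05 in these edgeR fits; Irf4 is at -1.19 and -1.47 in the lines and 0.12 in the spleen, and scaling to library size alone turns Irf2, Irf3 and Irf9 to 0.86, 0.93 and 0.79 in the spleen and Irf3 to -0.06 in MPC-11.

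The difference between the splenic and the MPC-11 effect was tested as an interaction over 8 libraries. Irf7 differed by 2.10 ± 0.59 (SE, splenic minus MPC-11 log2; edgeR adjusted p = 0.505) and Irf2 by -1.44 ± 0.41 (adjusted p = 0.509). Neither passed, as 0% of 12993 genes did, although 6.21% had an unadjusted p under 0.05. Irf4 differed by 1.32 ± 0.62 (adjusted p = 0.852) and Irf1 by -0.95 ± 0.43 (adjusted p = 0.826). For Irf3, Irf5 and Irf9 the differences were -0.11, -0.41 and -0.63, and scaling to library size alone turned these and that of Irf1 above 0. Irf8 could not be compared, having no count in MPC-11.

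Set against flox/+ splenic plasma cells, empty-vector MPC-11 had lower levels of most of the family relative to the other genes. The line and these cells differ in culture, sorting, Irf4 alleles, tamoxifen and passage through a host as well as in transformation, which cannot be told apart here. Markers of other cells differed too. Of 11 macrophage markers, 10 had no count in either empty-vector MPC-11 library (the exception, Cd68, carried sums of 1140 and 1260 CPM), against 2 at 0 in each flox/+ library, with sums of 489 and 182 CPM on the scale of all mouse libraries. The 10 B cell markers summed to 24.1 and 22 CPM in empty-vector MPC-11, 7 of them at 0 in each library, and to 262 and 293 CPM with flox/+; the part of these cells in the differences below was not tested. By edgeR's test 6 of 8 members were called lower and 0 higher, where 15.6% of 11465 genes were called lower and 12% higher. The median over the 8 was -1.73, against -0.02 over all genes, of which 49.5% lay above 0. Non-overlap was common between these sources, at 33% of genes higher and 33.5% lower. Scaled to library size alone the median of all genes was 1.86 and that of the 8 was 0.14, so lower here means lower than other genes.

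Irf8 had no count in empty-vector MPC-11 and 81.7 and 102 CPM in flox/+ plasma cells, at least 2270-fold lower from a floor of 3 counts over the MPC-11 group (edgeR adjusted p = 0.000198). Irf8 passed the filter only through flox/+, so it could only come out lower. Irf7 had 10.5 and 6.89 CPM in empty-vector MPC-11 and 79.5 and 85.5 CPM in flox/+ plasma cells. The groups lie far apart, and the log2 fold change was -3.25 ± 0.45 (SE; edgeR adjusted p = 0.00273). These 2 calls held under every scaling and with each library left out. Irf1 had 45.2 and 38.2 CPM in empty-vector MPC-11 and 118 and 131 CPM in flox/+ plasma cells (-1.58 ± 0.38; edgeR adjusted p = 0.0202). Irf2 had 16.4 and 14.0 against 59.8 and 59.1 (-1.96 ± 0.41; adjusted p = 0.0125). Scaled to library size alone, Irf1 turned to 0.29 and Irf2 stood at -0.10, and both lost their calls.

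Irf3 had 10.6 and 12 CPM in empty-vector MPC-11 and 26.7 and 49.3 CPM in flox/+ plasma cells (-1.75 ± 0.52; edgeR adjusted p = 0.0438). Irf9 had 28.5 and 16.6 against 79.8 and 68.2 (-1.71 ± 0.44; edgeR adjusted p = 0.0273). They turned to 0.18 and 0.10 with library size scaling. Leaving out empty-vector library 1 or 2 ended the calls of Irf1, Irf2, Irf3 and Irf9, with adjusted p of 0.0634 to 0.196. Leaving out flox/+ library a ended that of Irf9 (0.0701) and leaving out flox/+ library b ended those of Irf1, Irf3 and Irf9 (0.0740, 0.177 and 0.0583). Irf4 had 256 and 275 CPM in empty-vector MPC-11 and 154 and 78.9 CPM in flox/+ plasma cells, without overlap and without a call (1.19 ± 0.45; adjusted p = 0.0956 in edgeR and 0.0486 in DESeq2, which called 34.1% of genes). Irf5 had 89.7 and 99.0 against 76.8 and 67.3 (0.39 ± 0.37; edgeR adjusted p = 0.489). With library size scaling, Irf4 and Irf5 were called higher, at 3.03 and 2.27.

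Some pathway genes had no MPC-11 count at all. Of all 11465 genes tested, 1360 had no count in 1 of the 2 groups, whichever it was. By that measure there were 1 of 10 receptor and JAK-STAT genes, 1 of 13 partners and 3 of 17 sensors and adaptors. There were 5 of 11 inhibitors and 7 of 20 interferon-stimulated genes. Such a gene passes the filter only through the other group, so its direction is fixed. Jak1, the kinase shared by the type I and type II interferon receptors, had no count in any of the 4 MPC-11 libraries and 121 and 106 CPM in flox/+ plasma cells, at least 2790-fold lower (edgeR adjusted p = 0.000195). Its counts were 4034 and 5697 in flox/- libraries, 1535 and 1363 in flox/+ libraries, 1123 in bone marrow plasma cells and 18518 in follicular B cells. The receptor chain Ifnar2 rose instead, with 362 and 232 CPM in empty-vector MPC-11 and 81.3 and 123 CPM in flox/+ plasma cells (log2 fold change 1.54). Of the 10 receptor and JAK-STAT genes, edgeR called 1 higher and 2 lower (median -0.03, 1.87 with library size scaling).

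Interferon-stimulated genes were 10 lower and 1 higher by edgeR among 20 tested (median -2.20, and -0.18 with library size scaling). With TMM computed without immunoglobulin genes, 23 passed the filter, 13 were called lower and 1 higher, and the median was -6.49. In that fit 19 lay lower, against 16 in the main fit, and 4 lay higher in both. The median of all genes was -0.01 there and -0.02 in the main fit. The list median therefore moved with the genes that entered the filter, not with the scaling. Ifitm3 stood at 0.249 and 0.120 CPM in empty-vector MPC-11 and 86.5 and 105 CPM in flox/+ plasma cells, and Xaf1 at 0.0934 and 0 against 12.6 and 24.4. Gbp2 and Oas1a had no count in empty-vector MPC-11. Tap1, the peptide transporter, stood at 31.5 and 40.9 CPM against 172 and 202. Sensors and adaptors were 7 lower and 1 higher of 17 (median -1.46, 0.46 with library size scaling). Tlr7 and Ifih1 had no count in empty-vector MPC-11, and Tmem173 stood at 16.2 and 11.4 CPM against 139 and 110. Ddx58 stood at 1.28 and 5.26 against 43.2 and 29.4, and Irak1 at 43.3 and 52.7 against 176 and 163. With library size scaling the calls of Tap1, Ddx58 and Irak1 were lost, and Irak1 turned to 0.07.

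Of 11 inhibitors 5 were called lower (median of the list -1.18, 0.74 with library size scaling). Each had no count in empty-vector MPC-11, passed the filter only through flox/+ and could only come out lower. These were Usp18, Tnfaip3, Socs3, Socs1 and Trim21, and the bound for Usp18 was at least 533-fold lower. Of 13 partners 4 were called lower (median -1.06, 0.87 with library size scaling). Among them were Jun at 5.04 and 4.54 CPM in empty-vector MPC-11 against 434 and 1530, Batf with no count against 13.9 and 12.2, and Junb at 110 and 104 against 255 and 615, the last of which lost its call at -0.10 with library size scaling. Among 7 genes described as regulated by IRF4, Myc was called higher and Klf2 and Bcl6 lower (median -0.64, 1.30 with library size scaling). Myc stood at 727 and 1850 CPM in empty-vector MPC-11 and at 8.90 and 7.99 CPM in flox/+ plasma cells, while Klf2 and Bcl6 had no count in empty-vector MPC-11.

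**Figure D5:**
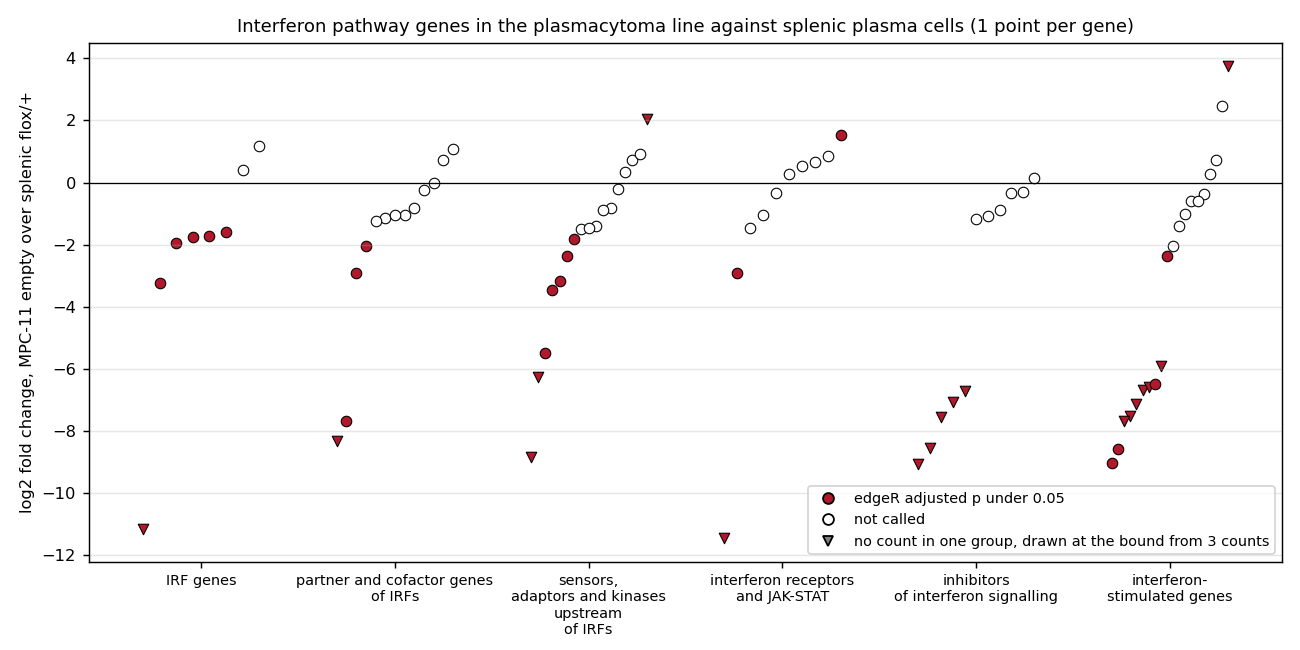
Log2 fold change of empty-vector MPC-11 over flox/+ splenic plasma cells (vertical axis; edgeR, 2 libraries per group) for IRF genes and 5 pathway lists, 1 point per tested gene, filled where the adjusted p is under 0.05; triangles have no count in 1 of the groups and are drawn at the bound from 3 counts. Of 8 IRF genes 6 are called lower; scaled to library size alone the median of all genes moves to 1.86, and Irf1, Irf3 and Irf9 turn above 0, as do the medians of all lists shown except interferon-stimulated genes.

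Wild-type bone marrow plasma cells were set against wild-type follicular B cells, 2 stages of the normal B lineage, with 1 library each and therefore no replicate check. Irf4 stood at 374 CPM in bone marrow plasma cells and 55.2 CPM in follicular B cells, 6.72-fold higher (log2 ratio 2.75, 95% interval 2.68 to 2.83, counting error only). Irf8 lay the other way, at 177 CPM against 635 CPM (-1.84). So did Irf9, at 33.0 against 124 (-1.89), and Irf1 (-1.10). These 4 were the members past a log2 ratio of 1, with 1 higher and 3 lower, where 46.5% of 11622 genes were past it (25.1% higher, 21.4% lower). Irf3, Irf2 and Irf5 had log2 ratios of -0.97, -0.88 and -0.77, and Irf7 stood at 27.2 CPM against 18.5 (0.54). Scaled to library size alone, Irf4 stood at 0.90, Irf7 turned to -1.28 and 7 members were past the threshold, all lower. Neutrophil markers summed to 529 CPM in the bone marrow library and 9.56 CPM in the follicular B cell library, and their part in these ratios was not tested.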

How the data were processed

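Of the 14 libraries, 12 form 6 groups of 2, and 2 stand alone. Per the labels' protocols, RNA was column-purified and libraries were made with a transposase kit; builds mm10 and hg38 and the tools featureCounts, limma and Subread 1.6.0 appear in the submitters' processing notes, and strandedness is not given in the sources used here. Raw counts (whole reads per gene) were deposited by the authors as 1 table per species, with a log2 FPKM table per library, whose offset no source describes and which looks rescaled between libraries. Entries without a symbol (at most 0.306% of counts) were left out. The 2 flox/+ count columns share a name, so the header gives no replicate number for them. By level, column a resembles log2 FPKM replicate 1 and column b replicate 2. Irf4 had 179 and 86.9 CPM in a and b, and 6.19 and 5.14 log2 FPKM in replicates 1 and 2. Irf3 had 31.1 and 54.3 CPM, and 4.87 and 5.62 log2 FPKM. These CPM are scaled over all mouse libraries, and the letters were kept.

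Comparisons were fitted apart, on 4 libraries each, in edgeR 4.0.16 under R 4.3.3 (TMM, filterByExpr with a minimum count of 10, quasi-likelihood F test, Benjamini-Hochberg over all genes tested, threshold 0.05), checked on simulated data; the SE is the log2 fold change over the root of F. CPM is scaled within the comparison, except for marker sums and reference libraries, scaled over a species. DESeq2 1.42.0 (genes passing filterByExpr) and limma 3.58.1 on log2 FPKM were alternatives. A fold against no count uses a floor of 3 counts over the group. A gene with no count in 1 group passes the filter only through the other, so its direction is fixed in every such comparison. Bone marrow plasma cells over follicular B cells is a log2 ratio of CPM plus 0.5, with a threshold of 1. Replicates differed beyond counting error (chi-square per degree of freedom 37.2 to 266).

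The 8 members, the gene lists and the tests were chosen with earlier results of these data known. Named beside the members were, in each list and comparison, genes past the edgeR threshold (at most 5 by p) or else the 2 with the smallest p, and the 5 genes most like Irf4 and Irf8 among those with a mean CPM of at least 10. Upstream sequences are from RefSeq (GRCm38.p6), and all 8 mouse members matched; coordinates of human genes are not given. Mb21d1 and MB21D1 were looked up and not found by symbol. Some genes of the lists enter the counts and are not reported by name here.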

Additional observations from a re-analysis of the deposited data

How the results depend on the processing

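DESeq2 called 635 genes in splenic plasma cells, 159 in MPC-11 and 374 in MM.1S, where edgeR called 0, 2 and 1. With 1 spread over all mouse groups the counts were 5 for the spleen and 6 for MPC-11; MM.1S has no further groups. Without a filter on low counts they were 32 in MPC-11 and 289 in MM.1S, with limma on log2 FPKM 0 and 9, and with library size alone 0 in MPC-11. Empty-vector MPC-11 against flox/+ gave 6385 calls with library size alone, against 3175, and 7 members past the threshold in bone marrow plasma cells against follicular B cells, against 4. Leaving out 1 library, where the lone sample is assumed to vary like the other group, gave 1 to 37 calls in MPC-11, namely 37 and 25 without guide libraries 1 and 2 and 1 and 24 without empty-vector libraries 1 and 2. MM.1S gave 2 and 0 without guide libraries 1 and 2 and 966 and 117 without empty-vector libraries 1 and 2. Empty-vector MPC-11 against flox/+ gave 1472 to 3081, with 1472 and 1618 without empty-vector libraries 1 and 2. The spleen gave 0 each time, with 1484 genes at an unadjusted p under 0.05 when none was left out, and the difference of effect gave 0 to 1, with 807 such genes.

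Same-numbered libraries correlated at -0.12 in MPC-11 and 0.15 in MM.1S, so the numbers were not taken as a pairing there. With 2 pairs each, this does not show that there is none. For the spleen no such correlation was computed, so a pairing of its libraries was not tested. With a replicate block, calls were 0 in MPC-11 and 208 in MM.1S, where IRF4 passed (adjusted p = 0.00456). Flox/+ count columns carry no number, so the spleen was blocked with limma on log2 FPKM, giving 377 calls against 0 in limma without the block, Irf7 (adjusted p = 0.0278) and Irf8 (0.0311) among them. Without a filter IRF4 passed in MM.1S too (adjusted p = 0.000227).

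Directions turned with library size alone for splenic Irf2 (0.86), Irf3 (0.93) and Irf9 (0.79), for Irf3 in MPC-11 (-0.06), for Irf1 (0.29), Irf3 (0.18) and Irf9 (0.10) in empty-vector MPC-11 against flox/+, and for the differences of effect of Irf1 (0.10), Irf3 (1.00), Irf5 (0.64) and Irf9 (0.35). Splenic Irf3, at 0.00, changed sign at 0.00 without a filter. Leaving out 1 library, the spleen ranged from -0.19 to 0.09 for Irf2, -0.34 to 0.43 for Irf3, -0.33 to 0.76 for Irf4 and -0.27 to 0.09 for Irf9. MM.1S ranged from -0.06 to 0.34 for IRF2, -0.06 to 0.95 for IRF3, -0.31 to 0.21 for IRF5 and -0.27 to 0.49 for IRF7, and the difference of effect of Irf3 from -0.51 to 0.39. The cause was not tested. Irf7 and Irf8 in the spleen, Irf1, Irf2 and Irf4 in MPC-11 and IRF4 in MM.1S kept their direction under all settings run. In empty-vector MPC-11 against flox/+, limma on log2 FPKM ended the call of Irf3 (adjusted p = 0.0549). Depth limits Irf8 in MPC-11, where no count allows up to 0.0789 to 0.108 CPM. Protein identity of the members was not run, as no protein sequences were used here.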
